A study of Mus musculus with 8 samples.

Results

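The 10 genes described here build the postsynaptic side of the neuromuscular junction, and none of them changed detectably in regenerating aged muscle after treatment with recombinant interleukin 33 (rIL-33). They comprise the 5 subunits of the muscle acetylcholine receptor (Chrna1, Chrnb1, Chrnd, Chrne and Chrng) and 5 genes that place the receptor under the nerve (Agrn, Lrp4, Musk, Dok7 and Rapsn). They were chosen by name, 10 of the 19752 genes with a value, and each was read by a single probe set that carries 1 gene symbol. The muscle was the tibialis anterior of male mice, 99 weeks old, taken whole at day 8 after an injury by freezing. In the treated group, 2 µg of rIL-33 was injected into the peritoneal cavity on the day before and again on the day after the injury (4 arrays, replicates 1 to 4), and the mice of the other group carry the treatment label PBS (4 arrays, replicates 1 to 4). Within each group, replicates 1 and 2 are labelled C57BL/6 for genetic background and replicates 3 and 4 are labelled WT, a distinction the labels leave unexplained, while the design text names C57BL/6 mice throughout. No uninjured muscle and no earlier or later day were among the samples, so the levels have no baseline to stand against. Whether the arrays stand for separate animals is not stated, so the p-values here reflect the scatter among arrays, part of which may be technical.

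The motor nerve releases acetylcholine onto a receptor that is a pentamer of subunits. In fetal, denervated and newly regenerating fibres the receptor carries the gamma subunit (Chrng), and in mature innervated fibres the epsilon subunit (Chrne) takes its place, while the alpha, beta and delta subunits (Chrna1, Chrnb1 and Chrnd) serve both forms. Agrin from the nerve binds LRP4 on the fibre, which activates the kinase MuSK together with the adaptor Dok-7, and rapsyn then anchors the receptor in dense clusters. After injury, new fibres first make receptor along much of their length and restrict it to the synapse once the nerve has returned.

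All 10 genes were above the level below which genes were left out of the tests as dim, a mean log2 intensity of 6.65, so all 10 were among the 14814 genes tested. With rIL-33 against PBS, 0 of the 10 passed an adjusted p of 0.05 in limma, against 0.00675% of all genes (1 gene), and 0 of the 10 had an unadjusted p under 0.05, against 9.63% of all genes (4.39% higher and 5.24% lower with rIL-33). Their rIL-33 and PBS arrays overlapped in 10 of 10, while 4.57% of all genes had groups that did not overlap (2.44% with rIL-33 above PBS and 2.13% below). Of the 10, 6 had a positive and 4 a negative log2 difference (rIL-33 minus PBS), with a median of 0.04. Over all genes tested, 7109 differences were positive and 7705 negative, with a median of -0.01. The differences ran between -0.15 (Chrnd) and 0.22 (Rapsn), and the smallest limma adjusted p was 0.599, for Rapsn. With the background label added to the fit, 1 of the 10, Rapsn, had an unadjusted limma p under 0.05, beside 2244 of the 14814 genes tested. Without the label 1427 of all genes did. In the fit with the label 0 of the 10 passed the adjusted threshold (limma adjusted p = 0.322 for Rapsn). The genes varied between the arrays of a group. Chrna1, Chrnd and Chrng shared their 2 highest arrays, rIL-33 replicate 2 and PBS replicate 1, and their 2 lowest, rIL-33 replicates 1 and 3, while their lowest PBS array was a different one for each. Chrnb1, Chrne, Lrp4, Musk and Rapsn, 5 of the 10, were lowest on PBS replicates 3 and 4. These arrays also stood apart over all genes tested, at 21.7 and 18.3 on the first principal component, with rIL-33 replicate 1 at the other end (-21.9) and the remaining arrays between -7.12 and 3.23. The share of all genes with either of these array patterns was not computed. Genes outside the set were also lowest on PBS replicates 3 and 4, Dmd, Ache and Ckm among them, while Runx1 and Myog were not.

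**Figure D1:**
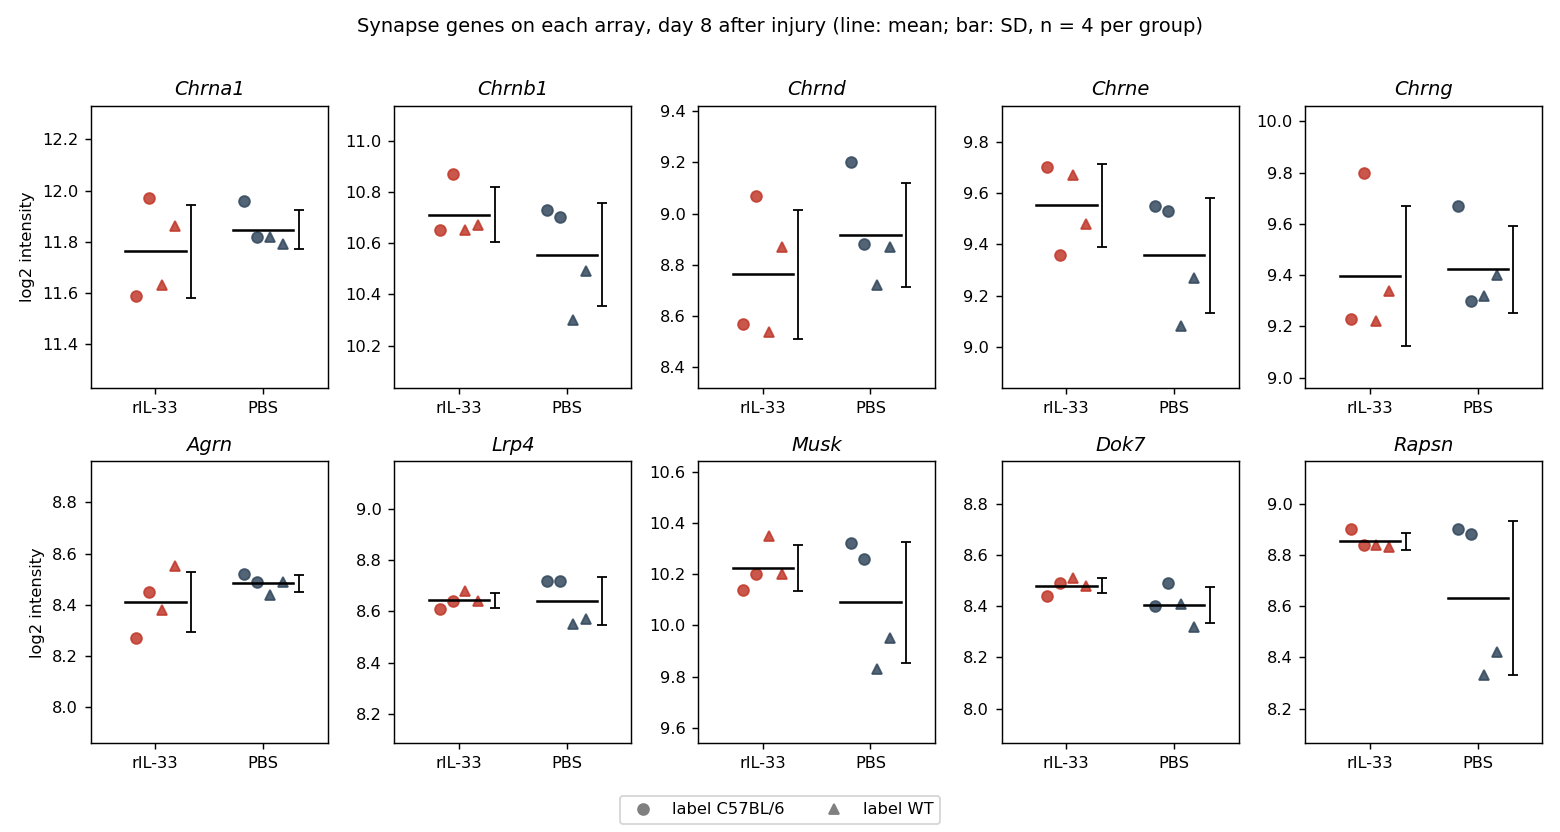
Log2 intensity (vertical axis, each panel spanning the same height) of the 10 genes on the 4 rIL-33 arrays (left, red) and the 4 PBS arrays (right, dark), with circles for arrays labelled C57BL/6 and triangles for arrays labelled WT, a line for the group mean and a bar for the SD. The groups overlap in every panel, and the 2 WT-labelled PBS arrays lie lowest for Rapsn (8.33 and 8.42), Musk (9.83 and 9.95), Lrp4, Chrne and Chrnb1.

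The regulatory DNA of the receptor genes is known for E-boxes (letters CANNTG), bound by myogenic factors such as MyoD and myogenin, and for the N-box (letters CCGGAA), bound by ETS factors such as GABP in the nuclei under the synapse. The 250 bases before the gene start are shown for the genes that held the E-box form CAGCTG there. Sequences are from RefSeq promoters of the build GRCm38.p6, 5′ to 3′ on the strand of the gene, where 7 of the 10 genes were matched. CAGCTG was held by 4 of these 7, Chrng, Chrne, Chrna1 and Musk, and not found in the windows of Chrnb1, Agrn and Dok7. Capitals mark the E-box form CAGCTG and the N-box. The windows are chr1:87205561-87205810, plus strand (Chrng), chr11:70619195-70619444, minus strand (Chrne), chr2:73580339-73580588, minus strand (Chrna1) and chr4:58285712-58285961, plus strand (Musk).
Chrng: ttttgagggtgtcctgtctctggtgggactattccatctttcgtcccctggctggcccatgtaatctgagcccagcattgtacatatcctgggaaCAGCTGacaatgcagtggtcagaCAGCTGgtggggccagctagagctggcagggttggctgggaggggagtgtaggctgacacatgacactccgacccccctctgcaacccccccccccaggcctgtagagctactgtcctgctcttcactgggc
Chrne: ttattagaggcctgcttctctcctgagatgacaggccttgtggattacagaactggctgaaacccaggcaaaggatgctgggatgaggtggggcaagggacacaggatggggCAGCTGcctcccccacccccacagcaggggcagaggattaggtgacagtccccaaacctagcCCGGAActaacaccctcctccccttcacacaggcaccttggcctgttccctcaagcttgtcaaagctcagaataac
Chrna1: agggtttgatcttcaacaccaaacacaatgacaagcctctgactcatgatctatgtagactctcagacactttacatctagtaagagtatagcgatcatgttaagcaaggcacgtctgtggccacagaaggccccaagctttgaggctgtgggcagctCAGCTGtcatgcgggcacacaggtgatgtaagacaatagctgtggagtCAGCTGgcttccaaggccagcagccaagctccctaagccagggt
Musk: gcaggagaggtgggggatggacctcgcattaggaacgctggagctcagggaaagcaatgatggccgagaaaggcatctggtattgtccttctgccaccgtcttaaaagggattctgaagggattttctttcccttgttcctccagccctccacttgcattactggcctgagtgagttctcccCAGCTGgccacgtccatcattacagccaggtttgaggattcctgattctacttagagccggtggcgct
CAGCTG began 155 and 132 bases before the start of Chrng, 92 and 44 bases before that of Chrna1, 138 bases before that of Chrne and 68 bases before that of Musk. Both E-box spellings read the same on either strand, and each CAGCTG is also a CANNTG. At least 1 CAGCTG stood in 13% of 32851 promoter windows of this length, and 2 or more, as in Chrng and Chrna1, stood in 1.26%. The general form CANNTG is common, with 66.2% of windows holding at least 1. Chrng, Chrna1, Musk and Chrnb1 each held 3, beside 12.2% of windows with 3 or more. CCGGAA, searched on both strands, began 76 bases before the start of Chrne and was found in 12% of all windows. Among the matched genes, Chrne was the 1 gene with it. These matches describe letters and do not show that a factor was bound.

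The fetal gamma subunit gene Chrng had log2 intensities of 9.23, 9.80, 9.22 and 9.34 on rIL-33 arrays 1 to 4, against 9.67, 9.30, 9.32 and 9.40 on PBS arrays 1 to 4. It was highest on rIL-33 replicate 2 and PBS replicate 1, and the lowest values belonged to 2 other rIL-33 arrays, so the groups overlapped. The mean was 9.40 ± 0.27 with rIL-33 and 9.42 ± 0.17 with PBS (SD, n = 4 per group). Chrng differed by -0.03 on the log2 scale (SE 0.14, limma adjusted p = 0.968). Its 95% interval in the limma fit corresponds to between 0.796 and 1.21 times the PBS level, as a ratio of geometric means of intensity. Signal that does not come from a gene compresses such ratios for dim probe sets.

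Chrne, the adult epsilon subunit gene, was at 9.70, 9.36, 9.67 and 9.48 with rIL-33, against 9.55, 9.53, 9.08 and 9.27 with PBS. The highest rIL-33 arrays were replicates 1 and 3, where Chrng was at its lowest, and the lowest PBS arrays were the WT-labelled replicates 3 and 4. Its log2 difference was 0.20 (SE 0.12, limma adjusted p = 0.607), with an interval from 0.952 to 1.38 times the PBS level. Within the WT-labelled arrays Chrne differed by 0.40 and within the C57BL/6-labelled ones by -0.01.

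The balance between fetal and adult subunit was read as log2 Chrng minus log2 Chrne on each array, expressed relative to the PBS mean, because the levels of different probe sets cannot be set against each other. On this scale the rIL-33 arrays stood at -0.54, 0.37, -0.52 and -0.21, against 0.05, -0.30, 0.17 and 0.07 for the PBS arrays. Of the rIL-33 arrays, 3 were shifted towards Chrne, replicates 1 and 3 further than any PBS array. Replicate 4 (-0.21) lay inside the PBS range, where PBS replicate 2 (-0.30) was shifted further. rIL-33 replicate 2 was shifted further towards Chrng than any PBS array. The difference of the means was -0.23, and the exact two-sided permutation test over 70 assignments of the arrays gave p = 0.4, where the smallest possible p is 0.0286. Leaving out rIL-33 replicate 2 gave -0.42 (exact permutation p = 0.0857), and leaving out rIL-33 replicate 1 gave -0.12. Within the C57BL/6-labelled arrays the value was 0.04 and within the WT-labelled ones -0.49.

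Chrna1 encodes the alpha subunit, which carries the acetylcholine binding site. It was at 11.59, 11.97, 11.63 and 11.86 with rIL-33, against 11.96, 11.82, 11.82 and 11.79 with PBS. The rIL-33 arrays were more widely spread (SD 0.18) than the PBS arrays (SD 0.08) and lay on both sides of them. Chrna1 differed by -0.08 on the log2 scale (SE 0.10, limma adjusted p = 0.822), with an interval from 0.814 to 1.09 times the PBS level.

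Chrnd, the delta subunit gene and the neighbour of Chrng on chromosome 1, was at 8.57, 9.07, 8.54 and 8.87 with rIL-33, against 9.20, 8.88, 8.72 and 8.87 with PBS. It was lowest on rIL-33 replicates 1 and 3 and highest on PBS replicate 1 and rIL-33 replicate 2. Its log2 difference was -0.15 (SE 0.14, limma adjusted p = 0.745). Chrnb1, the beta subunit gene, was at 10.65, 10.87, 10.65 and 10.67 with rIL-33, against 10.73, 10.70, 10.30 and 10.49 with PBS. Its 2 lowest arrays were the WT-labelled PBS arrays, and the remaining PBS arrays lay inside the rIL-33 range. Chrnb1 differed by 0.15 (SE 0.11, limma adjusted p = 0.653). Within the C57BL/6 label that value was 0.04 and within the WT label 0.27.

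Among the genes that cluster the receptor, agrin (Agrn), the organiser released by the nerve and also made by muscle, was at 8.27, 8.45, 8.38 and 8.55 with rIL-33, against 8.52, 8.49, 8.44 and 8.49 with PBS. Its log2 difference was -0.07 (SE 0.08, limma adjusted p = 0.805). Lrp4, the agrin receptor, was at 8.61, 8.64, 8.68 and 8.64 with rIL-33, against 8.72, 8.72, 8.55 and 8.57 with PBS. The rIL-33 arrays of Lrp4 lay between the C57BL/6-labelled and the WT-labelled PBS arrays. Its difference was 0.00 (SE 0.07), which leaves a range from 0.899 to 1.12 times the PBS level.

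Musk, the receptor tyrosine kinase without which receptors do not cluster, was at 10.14, 10.20, 10.35 and 10.20 with rIL-33, against 10.32, 10.26, 9.83 and 9.95 with PBS. Within the C57BL/6 label both rIL-33 arrays were below both PBS arrays (difference -0.12), and within the WT label both were above (0.38), so that the pooled log2 difference was 0.13 (SE 0.11, limma adjusted p = 0.735). Dok7, the adaptor that activates MuSK from inside the fibre, was at 8.44, 8.49, 8.51 and 8.48 with rIL-33, against 8.40, 8.49, 8.41 and 8.32 with PBS. It varied little, with a range of 0.19 over the 8 arrays, and its difference was 0.07 (SE 0.07, limma adjusted p = 0.754). Rapsn, which encodes the scaffold that ties receptors to each other and to the cytoskeleton, was at 8.90, 8.84, 8.84 and 8.83 with rIL-33, against 8.90, 8.88, 8.33 and 8.42 with PBS. The 4 rIL-33 arrays and the 2 C57BL/6-labelled PBS arrays lay between 8.83 and 8.90, and the 2 WT-labelled PBS arrays stood apart below them. Its log2 difference was 0.22 (SE 0.13, limma adjusted p = 0.599), with an interval from 0.953 to 1.42 times the PBS level. Within the labels it was -0.02 (C57BL/6) and 0.46 (WT).

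**Figure D2:**
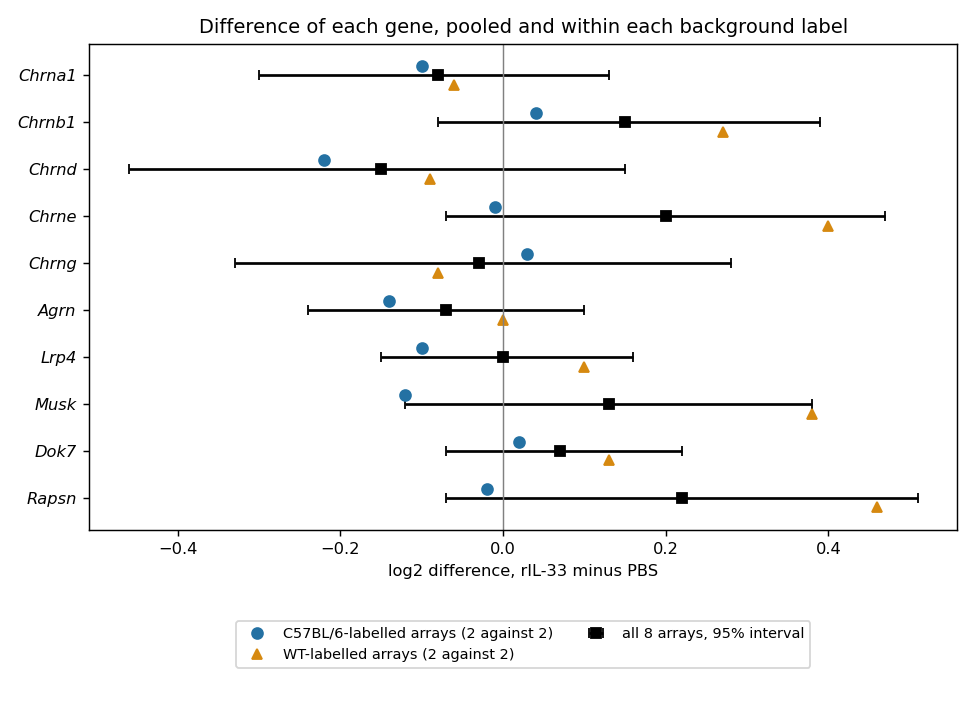
Log2 difference, rIL-33 minus PBS (horizontal axis), of the 10 genes over all 8 arrays (squares, with the 95% interval of the limma fit), within the C57BL/6-labelled arrays (circles) and within the WT-labelled arrays (triangles). Every interval includes 0, and the gap between circles and triangles is widest for Musk (-0.12 and 0.38) and Rapsn (-0.02 and 0.46).

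Each treatment group held 2 arrays of each background label, so the label could be tested beside the treatment. Between the WT and C57BL/6 labels, 9.40% of all genes (1392) passed an adjusted p of 0.05 in limma, and 0 of the 10 genes did. At an unadjusted p under 0.05, Rapsn and Chrnb1 were called, 2 of the 10, beside 32.9% of all genes. Rapsn differed by -0.28 (WT minus C57BL/6, SE 0.09, limma adjusted p = 0.0819) and Chrnb1 by -0.21 (SE 0.08, limma adjusted p = 0.103). The count of 1392 moved whenever any one of the 8 arrays was left out, to between 10 (without rIL-33 replicate 1) and 2510 (without rIL-33 replicate 2). The difference of the treatment effects between the labels was itself tested: 0 of the 10 genes and 0% of all genes passed the adjusted threshold, and 2 of the 10, Musk and Rapsn, had an unadjusted p under 0.05, beside 3.19% of all genes.

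Markers of the tissue were read beside these values. Ckm, the muscle creatine kinase gene, averaged 13.79 ± 0.09 with rIL-33 and 13.76 ± 0.13 with PBS (SD, n = 4 per group), and all 12 mature fibre genes were above the dim limit. The summed intensity of 12 mature fibre genes was lowest on PBS replicates 3 (136203) and 4 (132334), where Rapsn, Musk, Lrp4, Chrne and Chrnb1 were also lowest, and ran from 138408 to 150280 on the rIL-33 arrays, against 143843 and 143890 on the other PBS arrays. The sums of 8 Schwann cell genes (4601 and 4542) and of 15 axon and terminal genes (2255 and 2045) were highest on the same arrays. Only 8 of those 15 were above the dim limit. The lower quartile of all intensities was also highest there (107.3 and 100.2, against 88.33 to 100.1 on the other arrays). Of the Schwann cell genes, Pmp22, which other cells also make, was by far the brightest (log2 11.70 and 11.72 on these arrays). The part of any of these, or of what sets the arrays apart, in the low values was not tested. Without PBS replicates 3 and 4, a setting chosen after seeing the data, the log2 difference was -0.04 for Rapsn, -0.07 for Musk, -0.08 for Lrp4, -0.01 for Chrnb1 and 0.02 for Chrne. These genes were lowest on those arrays, so leaving the arrays out had to lower the differences. In whole muscle, fewer fibres and less RNA per fibre cannot be told apart.

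The summed intensity of 10 genes of regenerating fibres was highest on rIL-33 replicate 2 (35866) and PBS replicate 1 (35119), the arrays highest in Chrng, Chrna1 and Chrnd. It was lowest on rIL-33 replicate 3 (24484) and next lowest on rIL-33 replicate 1 (29431), the arrays lowest in these subunits. The sum rests mostly on Actc1 and Myl4, by far the brightest of the 10. Their log2 means were 13.19 and 13.31 with rIL-33 and 13.36 and 13.39 with PBS. The embryonic myosin gene Myh3 was likewise highest on rIL-33 replicate 2 (11.26) and PBS replicate 1 (11.16) and lowest on rIL-33 replicate 3 (10.28). On rIL-33 replicate 1, however, it was at 10.82, above PBS replicates 2 (10.60) and 4 (10.78). Myh3 differed between the groups by -0.04 (SE 0.19) and the neonatal myosin gene Myh8 by -0.05 (SE 0.16). The part of regenerating fibre content in the subunit levels was not tested.

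**Figure D3:**
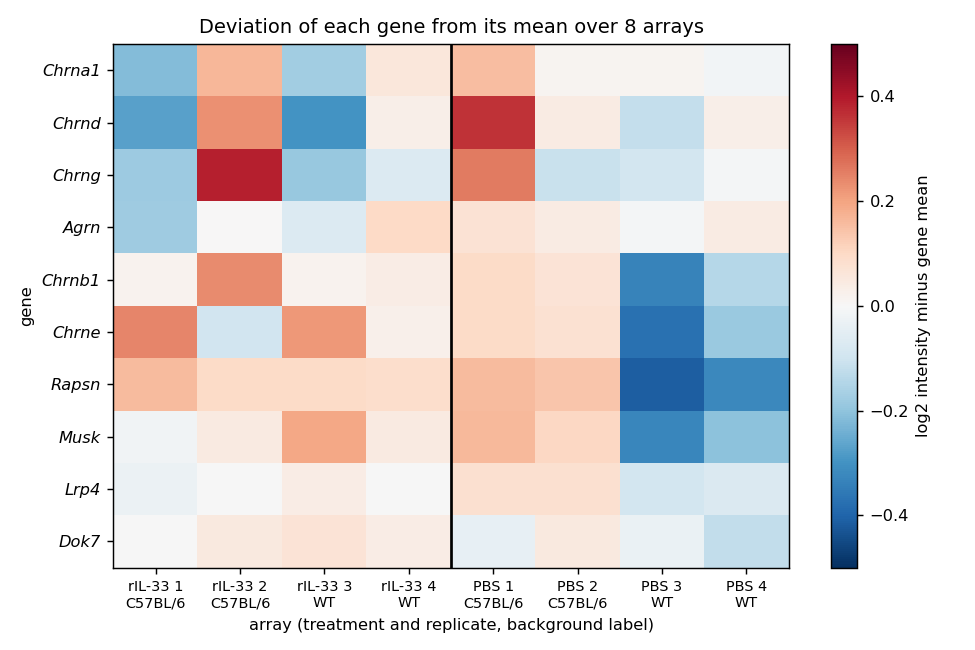
Log2 intensity of each gene minus its own mean over the 8 arrays (colour, red above and blue below), with genes in rows and arrays in columns, rIL-33 left of the line and PBS right of it, and the background label under each array. Chrna1, Chrnd and Chrng share their high arrays (rIL-33 replicate 2 and PBS replicate 1), and Chrnb1, Chrne, Rapsn, Musk and Lrp4 share their low arrays (PBS replicates 3 and 4).

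Over the 8 arrays, Pearson's r was computed for the 45 pairs of the 10 genes, and 35 were positive. The exact permutation test over 40320 orders of the arrays, adjusted over the 45 pairs, was under 0.05 for 4 pairs by Pearson's r and for 0 by Spearman's rho. Chrna1 and Chrnd had r = 0.93 (exact permutation p = 0.00377, adjusted p = 0.0424) and rho = 0.76 (exact permutation p = 0.0368, adjusted p = 0.276), and r was 0.85 without the 2 arrays farthest from the median of Chrna1. Chrnd and Chrng had r = 0.87 (exact permutation p = 0.0036, adjusted p = 0.0424) and rho = 0.83 (exact permutation p = 0.0154, adjusted p = 0.231), and r was 0.83 without the 2 farthest arrays. These values pool both groups, and the rank test did not pass after adjustment. The share of positive or passing pairs over all genes tested was not computed, so these counts have no background to stand against. Slc9a7, a gene outside the set, reached r = 0.986 with Chrne, above the highest of the 45 pairs (0.93). It was picked as the highest among the 14814 genes tested, and so large a search favours a higher maximum than 45 pairs do.

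Lrp4 and Musk, receptor and kinase of the same complex, had r = 0.91 (exact permutation p = 0.00126, adjusted p = 0.0424) and rho = 0.90 (exact permutation p = 0.00456, adjusted p = 0.205). Without the 2 arrays farthest from the median of Lrp4, PBS replicates 2 and 3, r was 0.93. PBS replicate 4, low in both genes, stayed in, and r without PBS replicates 3 and 4 was not computed for this pair. The remaining pair, Chrne and Rapsn, rested on PBS replicates 3 and 4, which form a cluster of their own for Rapsn, and r was 0.41 without them. Chrng and Chrne gave r = -0.25 (exact permutation p = 0.559, adjusted p = 0.846) and rho = -0.52 (exact permutation p = 0.197, adjusted p = 0.466), with r = -0.77 without PBS replicates 3 and 4. Each label and each group holds only 4 arrays, too few for a correlation within them.

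The genes most like single members over the 8 arrays, of the 14814 tested, are given as a description with no test. For Chrng they were Nrbp2 (r = 0.951), Gja5 (0.925) and Cand1 (0.923). For Chrna1 they were Mxra7 (r = 0.951), Ttc9 (0.947) and Lrrn1 (0.945). For Chrne they were Slc9a7 (r = 0.986), Fez2 (0.982) and Rcsd1 (0.978), and for Musk they were Mier2 (r = 0.972), G3bp1 (0.969) and Spata2 (0.951).

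The wider synapse was followed through lists of further genes, none of which had a gene past the adjusted threshold in limma. Of 20 tested genes of the cytoskeleton and scaffold under the receptor, 13 had a positive and 7 a negative difference, with a median of 0.03, and 2 had rIL-33 arrays all above the PBS arrays, beside 2.44% of all genes. Dmd, which encodes dystrophin, was at 10.98, 10.74, 10.87 and 10.68 with rIL-33, against 10.56, 10.59, 10.38 and 10.37 with PBS. Its log2 difference was 0.34 (SE 0.09, limma adjusted p = 0.489). Dtna, which encodes the dystrobrevin that helps hold receptors at the synapse, was at 10.96, 10.92, 10.95 and 10.94 with rIL-33, against 10.69, 10.72, 10.70 and 10.60 with PBS. The gap between its groups was wider than the spread inside either, with a difference of 0.26 (SE 0.06, limma adjusted p = 0.489). Both kept their sign within each label, Dmd with 0.29 and 0.40 and Dtna with 0.23 and 0.29 (C57BL/6 and WT labels). Utrn, which encodes utrophin, the relative of dystrophin found at the synapse, differed by 0.02 (SE 0.08), and the kinase gene Fyn by -0.22 (SE 0.11). The other tested genes of the dystrophin complex, named after their values were seen, had overlapping groups, with differences of 0.03 for Dag1, 0.02 for Sntb1, -0.17 for Sntb2 and -0.01 for Dtnb.

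In the synaptic cleft and its basal lamina, 12 genes were tested, 5 with a positive and 7 with a negative difference and a median of -0.07. Ache, which encodes the esterase that ends transmission, was at 9.76, 9.50, 9.64 and 9.49 with rIL-33, against 9.69, 9.40, 9.31 and 9.24 with PBS, and it differed by 0.19 (SE 0.11). Colq, which encodes the collagen tail that anchors the esterase, differed by 0.11 (SE 0.07). The largest differences of this list were negative, -0.38 (SE 0.13) for the laminin gene Lama4, -0.27 (SE 0.13) for the nidogen gene Nid2 and -0.21 (SE 0.10) for Prelp, and their limma adjusted p was between 0.489 and 0.548. Beside them, the summed intensity of 7 fibroblast genes was 16292 to 20458 on the rIL-33 arrays, against 22741 to 26191 on the PBS arrays, and that of 7 endothelial genes was 6837 to 8054, against 8045 to 8750. The part of these cells in the differences was not tested.

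The response of a fibre to lost electrical activity, as after denervation, was read from 8 tested genes, of which 1 had a positive difference and 7 a difference of zero or below, with a median of -0.12. Sln, which encodes the calcium pump regulator sarcolipin, had the largest at -0.35 (SE 0.15, limma adjusted p = 0.509). The transcription factor gene Runx1, induced by denervation, was at 10.56, 11.05, 10.80 and 11.11 with rIL-33, against 11.11, 10.99, 11.17 and 11.45 with PBS, and it differed by -0.30 (SE 0.14, limma adjusted p = 0.517). Myog, which encodes myogenin, a factor that binds E-boxes of receptor genes, was at 8.66, 9.03, 8.17 and 8.73 with rIL-33, against 9.28, 8.98, 8.57 and 8.65 with PBS. Myog was highest on PBS replicate 1 and second highest on rIL-33 replicate 2, the arrays that were also highest in Chrng, and it differed by -0.22 (SE 0.19). The adhesion molecule gene Ncam1, which marks denervated and regenerating fibres, differed by -0.09 (SE 0.15). Runx1 and Myog are also made by cells other than fibres in injured muscle, leukocytes and myoblasts among them, and the summed intensity of 11 leukocyte genes was 10772 to 14729 with rIL-33, against 13818 to 16687 with PBS. The part of these cells in the differences was not tested either.

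Among 7 tested genes of neuregulin signalling and ETS factors, which drive transcription in synaptic nuclei, the median was -0.01 and the differences lay between -0.09 and 0.17. Gabpa, a subunit of the factor that binds the N-box, differed by 0.17 (SE 0.10), Erbb3, a neuregulin receptor gene, by 0.08 (SE 0.10), and Etv5 by -0.09 (SE 0.07). The 8 tested genes of receptor glycosylation and assembly had a median of 0.01, with Alg2 (0.17, SE 0.12) and Ric3 (0.16, SE 0.10) at the upper end. Of 11 further nicotinic subunit genes, known from neurons and other cells, 5 were tested and 6 were dim. Chrna9 had the largest difference of these, -0.38 (SE 0.12, limma adjusted p = 0.489), at 6.86, 6.83, 6.89 and 6.94 with rIL-33, against 6.92, 7.52, 7.37 and 7.21 with PBS.

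Of 15 axon and terminal genes 8 were tested and 7 were dim. The tested ones had a median of -0.04, and Chat, which encodes the enzyme that makes acetylcholine, was dim in both groups (5.96 and 6.08). The growth-associated gene Stmn2 differed by -0.17 (SE 0.14). Schwann cell genes, 7 tested, had a median of 0.01, and the largest difference was -0.22 (SE 0.10) for Pmp22, which other cells also make, while the myelin gene Mbp differed by 0.14 (SE 0.07). Neither list had a gene whose groups did not overlap.

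Of the lists that mark other parts of the tissue, 10 regenerating fibre genes had 1 positive and 9 negative differences (median -0.07), and 12 mature fibre genes had 11 positive and 1 negative (median 0.06). For 10 tested leukocyte genes the counts were 1 and 9 (median -0.28), for 7 fibroblast genes 0 and 7 (median -0.38), and for 7 endothelial genes 2 and 5 (median -0.11). Groups did not overlap, with rIL-33 below PBS, for 4 fibroblast and 2 endothelial genes, beside 2.13% of all genes. Over all genes tested, 7109 differences were positive and 7705 negative. Without PBS replicates 3 and 4, chosen after seeing the data, the median was 0.02 for mature and -0.14 for regenerating fibre genes. It was -0.26, -0.36 and -0.15 for leukocyte, fibroblast and endothelial genes.

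**Figure D4:**
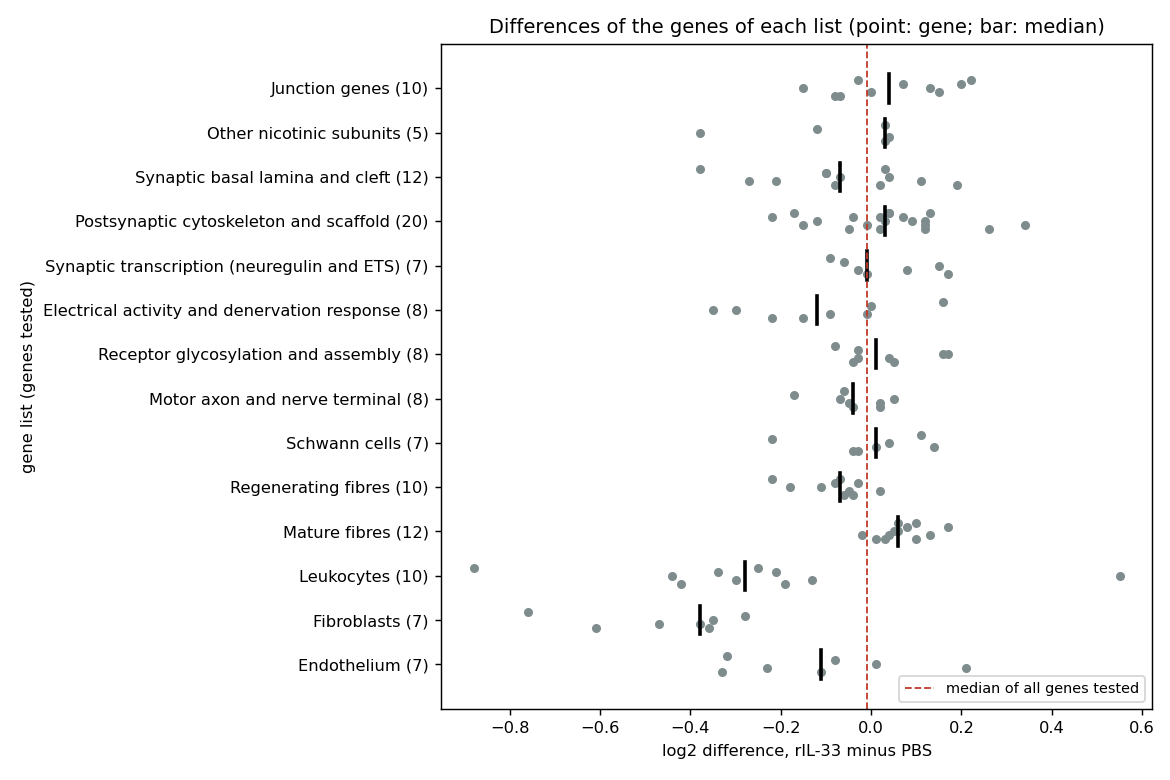
Log2 difference, rIL-33 minus PBS (horizontal axis), of each tested gene (points) in the lists on the vertical axis, with a bar at the list's median and the number of genes tested in brackets; the dashed line is the median of all genes tested. The junction genes lie between -0.15 and 0.22 around their median of 0.04, while the fibroblast genes all lie at or below -0.28.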

How the data were processed

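Affymetrix Mouse Gene 1.0 ST arrays were hybridised with RNA of whole muscle, 1 array per sample. The deposited values are probe set intensities on a linear scale, for which the submitters' processing notes name RMA and Affymetrix Power Tools without versions. RMA corrects background, equalises the arrays and summarises probes, so differences between arrays in total signal are not kept. Log2 was taken. Of 24922 probe sets, 21425 had 1 gene symbol in the platform annotation, 1399 had several and 2098 were not listed. Per gene the probe set of highest mean was used (19752 genes), and 4938 genes below the 25th percentile of means were left out as dim. Arrays give no read depth, and their number limits precision.

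All 8 arrays entered 1 limma fit (lmFit, then eBayes; limma 3.58.1, R 4.3.3) with no block, with Benjamini-Hochberg adjustment over 14814 genes. The script was tested on simulated data. The label and its interaction with treatment were tested in further limma fits. Exact permutation tests used scipy 1.17.1, and figures matplotlib 3.10.9 in Python 3.11.15.

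The members and lists were chosen with earlier results of these data known. Named were all 10 members, the up to 3 genes of largest difference in each list, a fixed set (Myog, Ncam1, Runx1, Myh3, Myh8, Ckm, Ache, Colq, Utrn, Etv5 and Erbb3), and the 3 genes most correlated with each of 4 members. Not all of the list genes so chosen are printed. Of 158 listed genes 147 were found and 130 tested. The alternatives were 2 other normalizations, other dim filters, eBayes with trend and robust, array weights, blocks, averaging over probe sets, each label by itself, leaving out single arrays, and a threshold of 0.1.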

Additional observations from a re-analysis of the deposited data

Results flagged for a closer look

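Chrnb1 stood at 10.87 on rIL-33 replicate 2, while the other rIL-33 arrays lay between 10.65 and 10.67, a gap large for the range of the group. Of 22 groups of 4 arrays looked at in this way, it was the 1 that stood out, and chance alone gives about 1 in 20. Without this array the log2 difference of Chrnb1 was 0.10.

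The treatment difference of Musk was 0.50 higher in the WT-labelled than in the C57BL/6-labelled arrays (SE 0.14, limma adjusted p = 0.999). That of Rapsn was 0.48 higher (SE 0.12, limma adjusted p = 0.999). These differences of the treatment effect had an unadjusted p under 0.05 and failed the adjustment over all genes. Without PBS replicates 3 and 4 the pooled difference was -0.07 for Musk and -0.04 for Rapsn. That setting was chosen after seeing the data. It leaves out the arrays on which both genes were lowest, so their differences had to fall.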

How the results depend on the processing

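No alternative brought any of the 10 genes past the adjusted threshold (smallest limma adjusted p = 0.322). At an unadjusted p under 0.05 in limma, 4 of the 10 were called within the WT-labelled arrays, beside 1745 of the 14814 genes tested. They were Rapsn, Musk, Chrne and Chrnb1, each lowest on PBS replicates 3 and 4, the WT-labelled PBS arrays. Within the C57BL/6-labelled arrays 0 of the 10 were called, beside 792 of 14814. The count was 1 with the label as a block (beside 2244 of all genes tested), 1 without PBS replicate 1 (beside 1227), 1 without PBS replicate 2 (beside 1890) and 0 otherwise. With only the arrays labelled C57BL/6 the sign turned for Chrne (-0.01), Chrng (0.03), Lrp4 (-0.10), Musk (-0.12), Rapsn (-0.02) and Chrng minus Chrne (0.04). With array weights it turned for Chrng (0.09) and Lrp4 (-0.01). Without PBS replicates 3 and 4, chosen after seeing the data, it turned for Chrnb1 (-0.01), Lrp4 (-0.08), Musk (-0.07) and Rapsn (-0.04). The differences of these genes had to fall in that setting, because the genes were lowest on the arrays left out. With 1 array left out at a time Chrng ran from -0.16 to 0.05 and Lrp4 from -0.03 to 0.03. Other differences kept their sign and moved, to 0.12 for Rapsn, 0.11 for Chrne, 0.07 for Chrnb1 and 0.05 for Musk without PBS replicate 3, to -0.26 for Chrnd and -0.15 for Chrna1 without rIL-33 replicate 2, to -0.06 for Chrnd without PBS replicate 1, and to -0.03 for Chrna1 and -0.02 for Agrn without rIL-33 replicate 1. The cause was not tested. The genes past the threshold, 1 in all, were 0 with the replicate number as a block, 0 without PBS replicates 3 and 4, 2 with the C57BL/6 and 4 with the WT label alone, and 1 to 2 with 1 array left out. Same-numbered arrays did not all vary together (r = 0.44, -0.186, 0.426 and 0.542), and rIL-33 replicate 1 with PBS replicate 2 gave 0.627. The background label goes with the number, so these values cannot decide whether the numbers pair the arrays. The block by number left 0 members past the threshold and Chrng minus Chrne at -0.23 (exact permutation p = 0.5). With only 4 same-numbered pairs of arrays to exchange, that permutation test could not reach 0.05. Genes differing between the labels numbered 375 after quantile and 419 after cyclic loess normalization (22.7% and 22% of them higher in WT, against 34% before), 892 with the dim filter at the 50th percentile, 3364 at a threshold of 0.1 and 10 to 2510 with 1 array left out.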
